A study of Caenorhabditis elegans with 8 samples.

Results

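The genes described here encode the neuropeptide receptors of Caenorhabditis elegans, chosen by gene name. Every measured gene whose symbol on the array platform began with npr, frpr, dmsr, ckr, tkr, gnrr, aexr, sprr, ntr, nmur or pdfr and ended in a number was taken, together with egl-6. This gave 17 genes, read by 27 probes, of 15078 named genes measured. They were 7 gnrr genes, 4 npr genes, 2 ckr genes, 2 sprr genes, tkr-1 and pdfr-1. The gene table of assembly WBcel235 lists 106 genes with names of this form, and the other 89 were not analysed here, among them all 20 frpr genes, all 16 dmsr genes and egl-6. The 17 genes are therefore a part of the receptor family that the annotation of this array names, and the counts below hold for that part alone.

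Neuropeptide receptors are mostly seven-pass membrane proteins that bind short secreted peptides outside the cell and signal through G proteins inside it. In the nematode they are made largely in nerve cells, often in only a few of them, and they tune locomotion, feeding, egg laying, arousal and the response to food, oxygen and pheromone. Dauers carry a nervous system that has been remodelled along with the rest of the body, and the decision to leave the stage is taken from sensory cues such as food.

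Dauer larvae, the non-feeding and stress-resistant larval stage, were compared with worms 12 h into dauer exit, purified dauers that had been put back on plates with OP50 bacteria, and both were set against mix-stage worms that held all developmental stages. All worms were of the wild-type strain N2 Bristol, and the dauers came from liquid cultures. Each of the 8 arrays took the RNA of 1 dauer or dauer exit culture in one dye and mix-stage RNA in the other, with 4 arrays per stage, of which 2 had the stage's own RNA in Cy5 and 2 in Cy3. N2 is a laboratory strain that carries the high-activity form of NPR-1. Values are log2 ratios of own RNA over mix-stage RNA, so that 0 is the mix-stage level, 1 is a doubled level and a negative value is lower than mix-stage. They are relative to mix-stage worms gene by gene, and the level of one receptor cannot be set against that of another. Equal amounts of total RNA were labelled, so a ratio is per amount of RNA and gives no level per worm or per cell. RNA came from whole worms. Fewer cells that make a receptor and less receptor RNA per cell cannot be told apart in such samples.

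Across all named genes the arrays correlated at 0.47 to 0.79 within the dauers, at 0.46 to 0.75 within dauer exit and at 0.11 to 0.61 between the stages. Of 7 genes listed for the dauer stage, the small heat shock gene hsp-12.6 and the metallothionein gene mtl-1 were higher in dauers than in dauer exit (log2 differences 5.30 and 4.64) and higher than in mix-stage worms, while lea-1 was lower than in mix-stage worms. A list of 19 genes used by nearly all nerve cells had array medians of -0.24 to 0.50 in dauers and -0.33 to -0.05 in dauer exit. Of these 19 genes, ric-19 was higher in dauers than in dauer exit and than in mix-stage worms, and the others did not pass in any of the comparisons. Among markers of other tissues, 9 of 12 hypodermis genes had a lower level in dauers than in dauer exit and 12 of 12 a lower level than in mix-stage worms, and of 16 germline and sperm genes 9 were lower in dauers than in mix-stage worms and 7 in dauer exit. Of 11 muscle genes, myo-2, tnc-2 and tni-4 were higher in dauers than in dauer exit and higher than in mix-stage worms, 7 were lower in dauers than in mix-stage worms, and 0 were higher and 7 lower in dauer exit than in mix-stage worms. Of 9 intestine genes, 5 had a lower level in dauers than in mix-stage worms, 3 in dauer exit than in mix-stage worms, and 1 in dauers than in dauer exit. Whether the share of RNA from nerve cells or from these tissues contributed to the receptor values was not tested.

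Both stages were compared with mix-stage and with each other, to ask which receptors are set differently in the dauer and during its exit. Calls were those with a p of 0.05 or less in limma after Benjamini-Hochberg adjustment over all named genes. In dauers, 2 of the 17 receptor genes were higher than in mix-stage worms and 0 were lower, where 4.92% of all named genes were called higher and 13.6% lower. The 2 were npr-1, with 1.87 times the mix-stage level, and sprr-2, with 2.14 times that level. In dauer exit 0 of the 17 were called against mix-stage, where 9.52% of all named genes were (0.458% higher and 9.07% lower). Between dauers and dauer exit 0 of the 17 were called, where 4.01% of all named genes were (2.13% higher and 1.88% lower). At an unadjusted p under 0.05 in limma, 6 receptors were above mix-stage in dauers and 0 below, where 28.6% of all named genes passed in total (8.58% above and 20% below). By the same measure 1 was above mix-stage in dauer exit and 0 below (20.8% of all named genes in total, 2.45% above and 18.3% below), and 2 were higher in dauers than in dauer exit and 0 lower (15.5% in total, 8.82% higher and 6.71% lower). The 3 comparisons share arrays, and those with mix-stage share the mix-stage RNA, so they are not independent of one another.

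**Figure D1:**
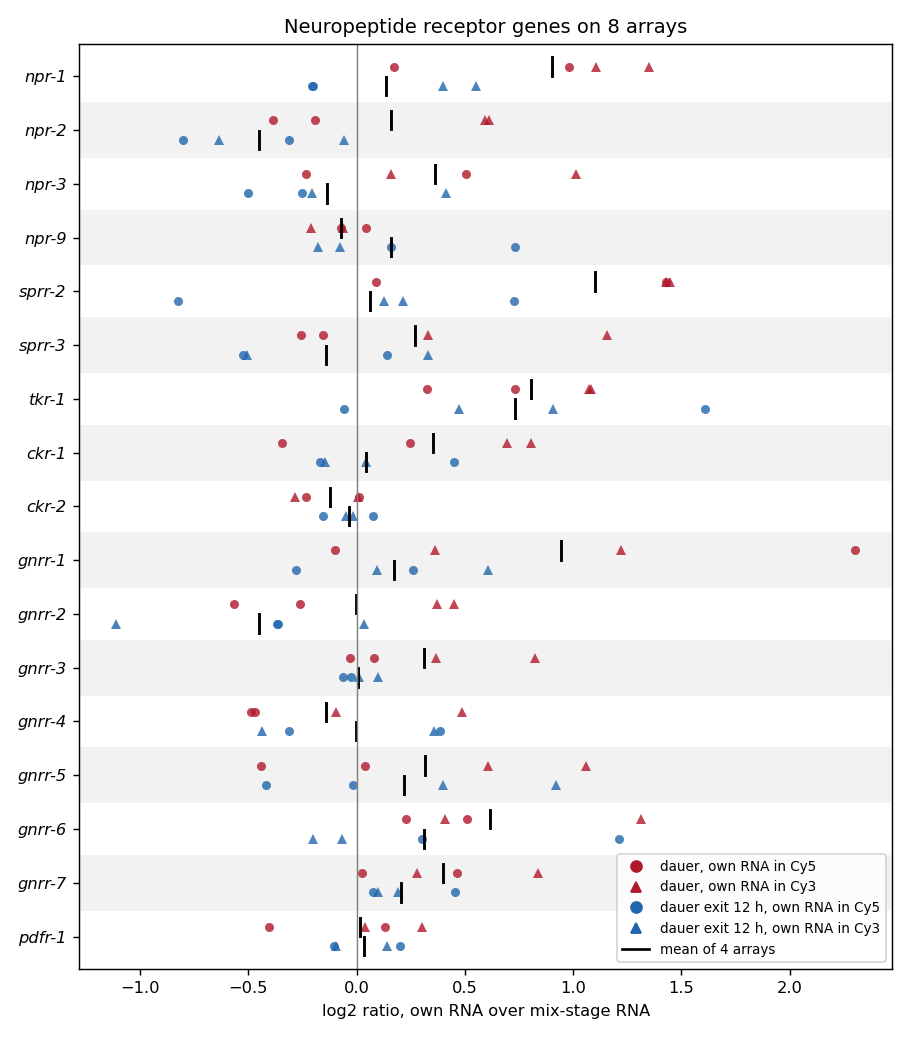
The plot gives, for each of 17 receptor genes, the log2 ratio of own RNA over mix-stage RNA (x axis, log2 scale, 0 is the mix-stage level) on 4 dauer arrays (red, upper line) and 4 dauer exit arrays (blue, lower line); circles have own RNA in Cy5, triangles in Cy3, and black bars are means. The red and blue points overlap for all 17 genes, and most points lie within 1 of the mix-stage level.

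Of 136 receptor values, 17 genes on 8 arrays, 16 lay more than 1 log2 unit from 0. The median over the 17 genes was 0.31 for dauers against mix-stage, where it was -0.05 over all named genes, and 0.04 for dauer exit against mix-stage, where it was -0.08. For dauer minus dauer exit it was 0.31, against 0.03 over all named genes, with 13 of the 17 above 0 and 4 below. Without dauer array 4 these medians were 0.14 for dauers against mix-stage and 0.11 for dauer minus dauer exit. With any other single array left out they ran from 0.25 to 0.42 and from 0.23 to 0.38. The dauer exit median ran from 0.00 to 0.12 with 1 array left out. The dauer and dauer exit arrays overlapped for all 17 genes, while 5.37% of all named genes had their 4 dauer arrays above all 4 dauer exit arrays and 4.18% had them below.

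The arrays of one stage did not carry the receptors evenly. The median over the 17 genes was 0.05, -0.07, 0.37 and 0.84 on dauer arrays 1 to 4, and 0.07, 0.14, -0.01 and -0.15 on dauer exit arrays 1 to 4. Dauer array 4 was thus the high one, with 16 of the 17 genes above 0, and dauer array 2 had 7 above 0. The medians over all named genes on the dauer arrays ran from -0.13 to -0.03 and did not show the same spread. Dauer array medians ran from 0.18 to 1.74 for 30 genes of FMRFamide-like peptides and from -0.05 to 0.56 for 21 small-transmitter receptor genes. For the 19 nerve cell genes they ran from -0.24 to 0.50. Uneven dauer arrays were thus not particular to the 17 receptors.

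npr-1, which encodes a receptor related to the neuropeptide Y receptors of vertebrates and sets whether worms feed alone or in groups and how they react to oxygen, was one of the 2 receptors called. Its log2 ratios were 0.17, 0.98, 1.35 and 1.11 on the dauer arrays and -0.21, 0.40, 0.55 and -0.20 on the dauer exit arrays. All 4 dauer arrays lay above mix-stage, with array 1 the low one, and the dauer exit arrays lay on both sides of it. The dauer mean was 0.90 ± 0.51 (SD, n = 4), which differed from mix-stage by 0.90 ± 0.22 (SE, adjusted p = 0.0180 in limma). In dauer exit the mean was 0.14 ± 0.40 (SD, n = 4; adjusted p = 0.851 against mix-stage). The difference between dauers and dauer exit was 0.77 ± 0.31 (SE), with a 95% interval of 0.07 to 1.46 and an adjusted p of 0.264, so it was not called.

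The other 3 npr genes were not called in any comparison. npr-2, a further relative of the neuropeptide Y receptors, had log2 ratios of -0.39, -0.19, 0.59 and 0.61 in dauers and -0.31, -0.06, -0.64 and -0.80 in dauer exit. It was the only receptor gene with all 4 dauer exit arrays below mix-stage, as were 24.2% of all genes, at a mean of -0.45 ± 0.33 (SD, n = 4; adjusted p = 0.273 against mix-stage). Its dauer values split by array, 2 below mix-stage and 2 above, and dauer minus dauer exit was 0.61 ± 0.30 (SE, adjusted p = 0.386). npr-3, whose product answers the FMRFamide-like peptides of flp-15, averaged 0.36 ± 0.53 in dauers and -0.14 ± 0.39 in dauer exit (SD, n = 4 each). npr-9, a relative of the galanin and allatostatin receptors that acts in a pair of interneurons on local search for food, averaged -0.07 ± 0.10 in dauers and 0.16 ± 0.41 in dauer exit (SD, n = 4 each). npr-9 was among the most even receptors across dauer cultures, and its dauer minus dauer exit interval of -0.77 to 0.30 leaves out a doubled ratio in dauers. Its ratio equalled that of another feature on 7 of 8 arrays, and whether its spot was near the background was not tested.

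sprr-2 belongs to the family of the sex peptide receptor of Drosophila, which is also a receptor for myoinhibitory peptides in insects. Its log2 ratios were 0.09, 1.43, 1.43 and 1.45 on the dauer arrays and 0.73, 0.22, 0.13 and -0.83 on the dauer exit arrays. In dauers 3 arrays lay close together and array 1 lay at the mix-stage level, below 3 of the 4 dauer exit arrays, which were spread on both sides of 0. The dauer mean was 1.10 ± 0.67 (SD, n = 4), a difference from mix-stage of 1.10 ± 0.29 (SE, adjusted p = 0.0269 in limma). In dauer exit it was 0.06 ± 0.65 (SD, n = 4; adjusted p = 0.963 against mix-stage). Dauer minus dauer exit was 1.04 ± 0.41 (SE), the largest difference among the 17 genes, with a 95% interval of 0.11 to 1.97 and an adjusted p of 0.252. Its family member sprr-3 gave -0.26, -0.15, 0.33 and 1.16 in dauers and 0.14, 0.33, -0.51 and -0.53 in dauer exit. These values overlapped over most of their range, and the difference of 0.41 ± 0.36 (SE) did not pass (adjusted p = 0.711).

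The calls of npr-1 and sprr-2 against mix-stage did not hold with every choice of dauer arrays. With dauer array 2, 3 or 4 left out, neither gene was called in limma, at adjusted p-values of 0.0611, 0.0623 and 0.0803 for npr-1 and 0.101, 0.0790 and 0.113 for sprr-2. The differences were then 0.88, 0.75 and 0.83 for npr-1, and 0.99, 0.99 and 0.98 for sprr-2. With all arrays they were 0.90 and 1.10. Fits with fewer dauer arrays also have less power to call a gene. Without dauer array 1, the low array of both genes, both stayed called, npr-1 at 1.15 (adjusted p = 0.00820) and sprr-2 at 1.44 (adjusted p = 0.00946). The difference from mix-stage was above 0 for both genes in every alternative tried.

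tkr-1, a member of the tachykinin receptor family, which in other animals binds tachykinins such as substance P, lay above mix-stage in both stages. Its log2 ratios were 0.73, 0.32, 1.08 and 1.07 in dauers and 1.61, 0.91, 0.47 and -0.06 in dauer exit. All dauer arrays and 3 of the 4 dauer exit arrays were above mix-stage, and the dauer range lay within that of dauer exit. The means were 0.80 ± 0.36 in dauers and 0.73 ± 0.71 in dauer exit (SD, n = 4 each). The adjusted p was 0.0575 for dauers and 0.122 for dauer exit against mix-stage, and 0.968 for dauer minus dauer exit, which was 0.07 ± 0.36 (SE). The 95% interval of that difference, -0.74 to 0.88, still holds sizeable changes either way. The dauer value depended on how the arrays were put on one level: with each array centred on its median it was 0.88 (adjusted p = 0.0332), which is past the threshold.

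The gnrr genes encode relatives of the receptors for gonadotropin-releasing hormone in vertebrates and for adipokinetic hormone in insects, and all 7 were measured. None was called in any comparison. gnrr-1, whose product responds to the adipokinetic-hormone-like peptide of nlp-47, gave -0.10, 2.30, 0.36 and 1.22 in dauers and 0.26, 0.61, 0.09 and -0.28 in dauer exit. The dauer cultures of this gene were the most uneven of all receptors, with array 2 the high one and array 1 near the mix-stage level. Its dauer mean was 0.95 ± 1.06 (SD, n = 4; adjusted p = 0.0920 against mix-stage), and dauer minus dauer exit was 0.77 ± 0.48 (SE, adjusted p = 0.546).

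gnrr-6 and gnrr-7 lie next to each other in the gene table. gnrr-6 gave 0.51, 0.23, 0.41 and 1.31 in dauers and 1.21, -0.07, -0.20 and 0.30 in dauer exit. gnrr-7 gave 0.46, 0.02, 0.28 and 0.84 in dauers and 0.46, 0.10, 0.19 and 0.08 in dauer exit. Both had all dauer arrays above mix-stage, and in both array 4 was the highest dauer array and array 1 the highest dauer exit array. The means against mix-stage were 0.62 ± 0.26 for gnrr-6 (SE, adjusted p = 0.147) and 0.40 ± 0.16 for gnrr-7 (SE, adjusted p = 0.134) in dauers, and neither passed.

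In all, 5 of the 17 receptors (npr-1, sprr-2, tkr-1, gnrr-6 and gnrr-7) had their 4 dauer arrays above mix-stage, where 9.99% of all named genes did, and 0 had all 4 below, where 21.6% of all genes did. In dauer exit gnrr-7 had all 4 arrays above mix-stage, as did 5.88% of all named genes.

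The remaining gnrr genes had no call against mix-stage. The dauer means of gnrr-3 and gnrr-5 were both 0.31, with SDs of 0.38 and 0.66, and the dauer exit means were 0.01 ± 0.07 and 0.22 ± 0.57 (SD, n = 4 each). gnrr-3 was the most even of all receptors in dauer exit, from -0.06 to 0.10. gnrr-5 spread more widely, from -0.44 to 1.06 in dauers and from -0.42 to 0.92 in dauer exit. gnrr-4 ran from -0.49 to 0.49 in dauers and from -0.44 to 0.39 in dauer exit, so that both stages straddled the mix-stage level. gnrr-2 ran from -0.57 to 0.45 in dauers and from -1.11 to 0.04 in dauer exit, with a dauer exit mean of -0.45 ± 0.48 (SD, n = 4; adjusted p = 0.322 against mix-stage). Over the 7 gnrr genes the difference between dauers and dauer exit ran from -0.14 for gnrr-4 to 0.77 for gnrr-1.

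ckr-1 and ckr-2 encode receptors related to those for cholecystokinin, and both answer the peptides of nlp-12, which act on locomotion. ckr-1 gave -0.34, 0.25, 0.70 and 0.81 in dauers and 0.45, -0.15, 0.04 and -0.17 in dauer exit. ckr-2 gave 0.01, -0.23, -0.29 and 0.01 in dauers and 0.07, -0.05, -0.01 and -0.15 in dauer exit. ckr-1 spread over more than 1 log2 unit among the dauer cultures, while ckr-2 kept within 0.3 of mix-stage on every array. The differences between dauers and dauer exit were 0.31 ± 0.29 for ckr-1 and -0.09 ± 0.18 for ckr-2 (SE), with 95% intervals of -0.35 to 0.97 and -0.50 to 0.33.

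pdfr-1 encodes the receptor for the pigment dispersing factor peptides, which in the worm promote roaming, arousal and the search for mates. It gave 0.13, -0.41, 0.04 and 0.30 in dauers and -0.11, 0.14, -0.09 and 0.20 in dauer exit. Values of both stages lay on both sides of the mix-stage level, and dauer minus dauer exit was -0.02 ± 0.22 (SE), with a 95% interval of -0.51 to 0.47.

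The even values of ckr-2 and pdfr-1 are means over several probes that did not run together. The 5 probes of ckr-2 gave dauer minus dauer exit values of -0.50 to 0.61, with 1 of them above 0. The 5 probes of pdfr-1 gave -0.67 to 0.82, with 2 above 0. The 3 probes of gnrr-6 gave dauer means of 0.31 to 0.85, all above mix-stage. The other 14 receptors, npr-1 and sprr-2 among them, had 1 probe each, so no second probe bears on their values.

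**Figure D2:**
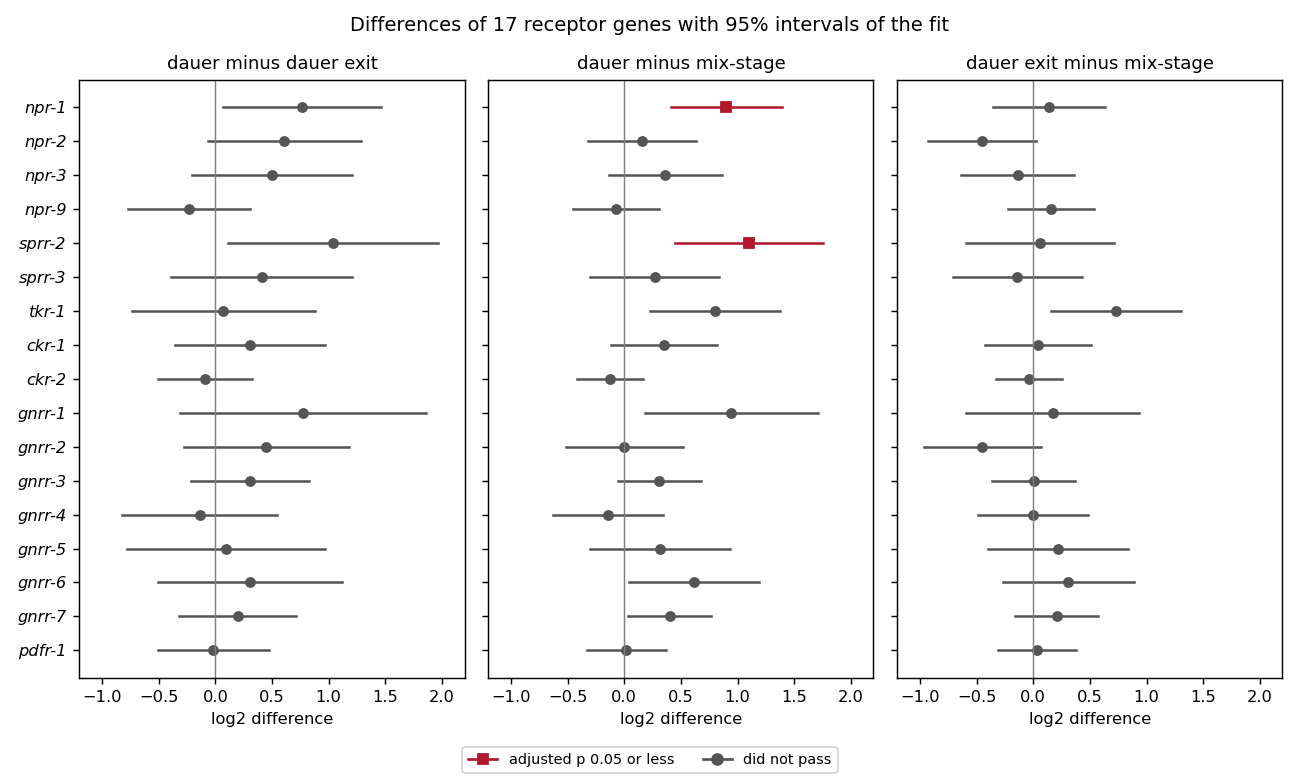
Points give the fitted log2 difference (x axis) of each of 17 receptor genes for dauer minus dauer exit (left), dauer minus mix-stage (middle) and dauer exit minus mix-stage (right), and lines give 95% intervals. Red squares are the 2 calls, npr-1 and sprr-2 in dauers against mix-stage; intervals of 2, 6 and 1 genes leave out 0 in the left, middle and right panels.

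The intervals set how large a change in these ratios could have gone unseen. For dauer minus dauer exit the 95% interval lay wholly within 1 log2 unit of 0 for 9 of the 17 receptors. For the other 8 it reached past a doubled level in dauers. No interval reached a halved level, and the lowest bound was -0.82, for gnrr-4. Against mix-stage it lay within 1 log2 unit for 12 receptors in dauers and for 16 in dauer exit. The median SE of the 17 genes, 0.31 between the stages and 0.22 against mix-stage, was that of all named genes.

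The receptor values differed between the arrays of opposite dye orientation. For dauer minus dauer exit the median over the 17 genes was -0.02 over arrays that carried the stage's RNA in Cy5 and 0.48 over those that carried it in Cy3. For dauers against mix-stage it was -0.01 in Cy5 and 0.60 in Cy3. The difference was above 0 for 7 receptors within Cy5 and for 15 within Cy3. It had opposite signs in the 2 dyes for 8 receptors. npr-1 gave 0.78 within Cy5 and 0.75 within Cy3, and sprr-2 gave 0.81 and 1.27. gnrr-6 gave -0.39 within Cy5 and 1.00 within Cy3, and gnrr-2 gave -0.05 and 0.95. Among the dauer arrays alone, the 2 arrays of Cy3 averaged above the 2 of Cy5 for 14 of the 17 receptors, and for 9472 of all 15078 named genes. Against mix-stage the dauer means were 0.58 within Cy5 and 1.23 within Cy3 for npr-1, and 0.76 and 1.44 for sprr-2. With a dye term in the model, 0 receptors and 0 of all genes were called for dye in limma. The Cy5 arrays were fitted below the Cy3 arrays for 14 of the 17 receptors (82.4%, against 54.8% of all named genes), with dye terms of -0.96 for gnrr-5 (adjusted p = 0.139 in limma) and -0.66 for npr-1 (adjusted p = 0.199). With 2 arrays per dye and stage, dye and the cultures hybridised in that dye cannot be told apart.

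**Figure D3:**
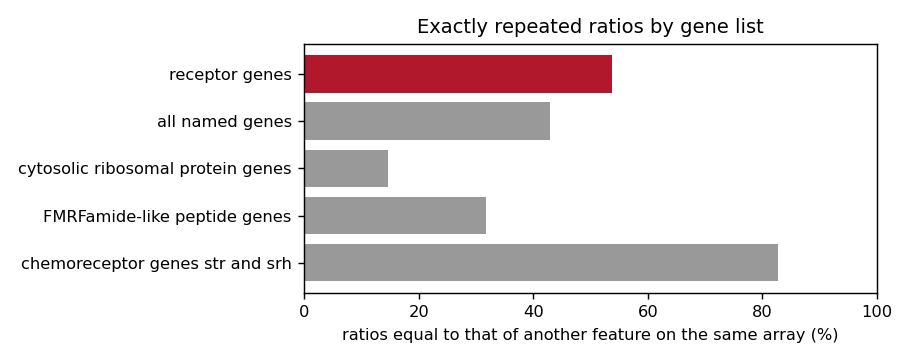
Bars give the percentage of log2 ratios (x axis, 0 to 100%) that equalled the ratio of another feature on the same array to every decimal deposited, for the receptor genes (red) and for 4 gene lists (grey). The receptor genes stand at 53.7%, above all named genes (42.9%) and below the str and srh chemoreceptor genes (82.8%).

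Many receptor ratios were exact repeats of a value found elsewhere on the same array. Of the 216 ratios of the 27 receptor probes, 116 (53.7%) were equal to that of at least 1 other feature. The share was 42.9% over the probes of all named genes, 31.7% for 30 FMRFamide-like peptide genes, 14.6% for 58 cytosolic ribosomal protein genes, which are made at high levels in nearly all cells, and 82.8% for 402 str and srh chemoreceptor genes, many of which are made in single sensory cells. These lists were picked after the repeats had been seen. By gene, gnrr-7 shared its ratio on 8 of 8 arrays and npr-1 on 6 of 8, while sprr-2, npr-2 and ckr-1 did so on 1 of 8. npr-9, even across dauers, and gnrr-3, even across dauer exit, each shared theirs on 7 of 8. Signal intensities were not used here, so how dim these spots were was not tested.

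The genes of the peptides themselves were counted in the same way. Genes of the FMRFamide-like peptides (flp), which bind npr receptors among others, were called higher in dauers than in dauer exit for 13 of 30 and lower for 0, with a median difference of 1.41. Genes of the other neuropeptide-like proteins (nlp) were called higher for 4 of 41 and lower for 1, with a median of 0.64. Of all named genes, 2.13% were called higher and 1.88% lower. Against mix-stage, 15 flp genes were higher in dauers and 0 lower, and in dauer exit 0 were higher and 5 lower. Of the nlp genes, 7 were higher than mix-stage and 7 lower in dauers, and 0 were higher and 9 lower in dauer exit. The shares over all named genes were 4.92% higher and 13.6% lower in dauers, and 0.458% and 9.07% in dauer exit. Among the nlp genes, nlp-29, lower than mix-stage in both stages, is also on the list of hypodermis genes above. The nlp counts are therefore not those of nerve cell peptides alone. Apart from the known pairs given below, which nlp genes encode ligands of the receptors measured here was not tested. The flp and nlp lists were known to move in these data when they were chosen, and their counts are no independent evidence of it.

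Ligand and receptor pairs known from the worm were set side by side. flp-18, which encodes peptides that activate NPR-1, had log2 ratios of 1.96, 0.57, 2.71 and 3.46 in dauers, and in dauer exit it averaged -0.72, with -0.23 on its highest array. flp-21, whose peptide is a further ligand of NPR-1, gave 1.79, 0.41, 2.18 and 2.77 in dauers and -0.01, -0.57, -0.77 and 0.15 in dauer exit. For both, every dauer array lay above every dauer exit array, and dauer minus dauer exit was 2.90 ± 0.54 for flp-18 (SE, adjusted p = 0.0202 in limma) and 2.09 ± 0.47 for flp-21 (SE, adjusted p = 0.0422), beside 0.77 ± 0.31 (SE, adjusted p = 0.264) for npr-1. nlp-47, the ligand gene of gnrr-1, gave 1.07, 1.76, 2.43 and 2.47 in dauers and -1.39, 0.18, -1.16 and -0.59 in dauer exit. Its difference was 2.67 ± 0.42 (SE, adjusted p = 0.00961), beside 0.77 ± 0.48 (SE) for gnrr-1. Differences between a ligand and its receptor were not tested.

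The remaining pairs with both genes measured had no call on either side between the stages. The ligand genes nlp-58, listed for tkr-1, and pdf-2, listed for pdfr-1, were not among the named genes measured. flp-15 differed by 1.34 ± 0.66 between dauers and dauer exit (SE, adjusted p = 0.383), beside 0.50 ± 0.31 for npr-3 (SE, adjusted p = 0.554). pdf-1, which encodes a ligand of PDFR-1, gave 0.46, -1.28, 1.67 and 1.36 in dauers and -1.01, -1.10, -1.95 and -1.36 in dauer exit, a difference of 1.91 ± 0.58 (SE, adjusted p = 0.123). Its dauer array 2 fell among the dauer exit arrays, as did no other dauer array of this gene. nlp-12 differed by 0.98 ± 0.55 (SE, adjusted p = 0.481).

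**Figure D4:**
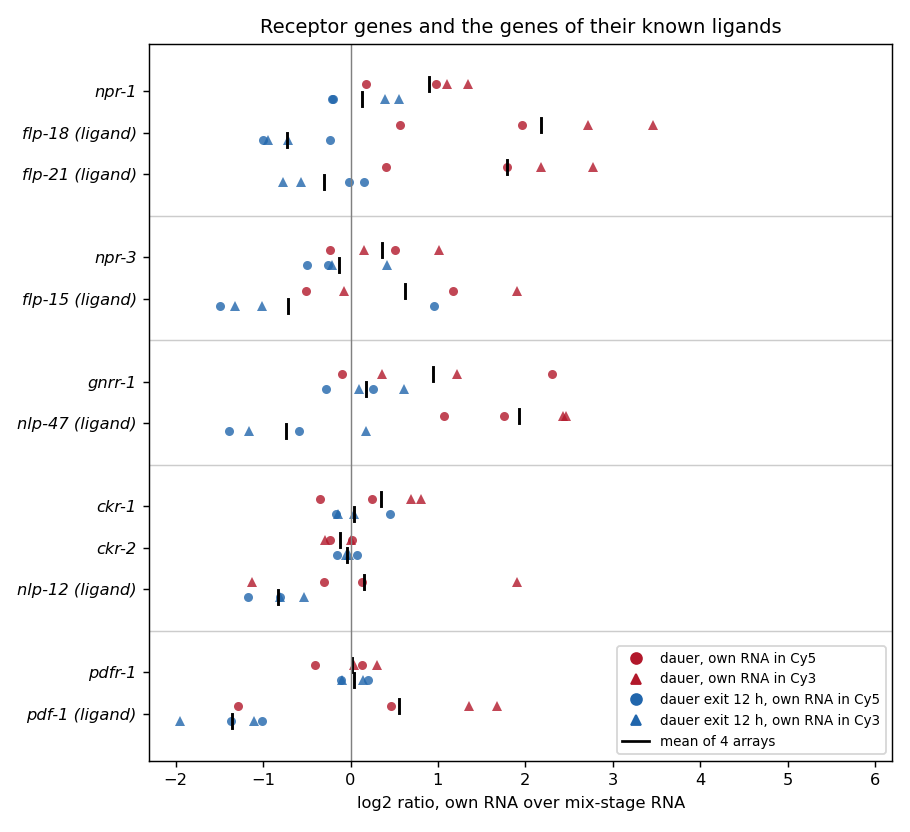
The plot sets 6 receptor genes beside the genes of their ligands: x axis, log2 ratio of own RNA over mix-stage RNA; red, 4 dauer arrays; blue, 4 dauer exit arrays; circles, own RNA in Cy5; triangles, own RNA in Cy3; black bars, means. For flp-18, flp-21 and nlp-47 the dauer points lie wholly above the dauer exit points, while for npr-1 and gnrr-1 both stages overlap.

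Genes upstream and downstream of the receptors were counted in the same way. Of 13 genes for making and releasing peptides, sbt-1, which encodes a chaperone of a processing enzyme, and ric-19, which acts in dense core vesicle maturation, were higher in dauers than in dauer exit (2.56 and 2.15 on the log2 scale), and none was lower. Of all named genes, 2.13% were higher and 1.88% lower between the stages. Against mix-stage, ric-19 was higher (1.38) and aex-5 lower (-1.76) in dauers, where 4.92% and 13.6% of all named genes were. sbt-1 was lower than mix-stage in dauer exit (-1.53), where 9.07% of all named genes were, and did not pass in dauers. ric-19 is also the gene called from the list of nerve cell genes above. Of 59 genes of G protein signalling, 0 were called between the stages in limma, where 4.01% of all named genes were. Their median difference was 0.03, as over all named genes. Against mix-stage, the G protein alpha subunit genes gpa-1 (0.89) and gpa-8 (1.27) and the adenylyl cyclase gene acy-2 (0.76) were higher in dauers, and rgs-9, which encodes a regulator of G protein signalling, was lower in dauers (-0.95) and in dauer exit (-0.96). rgs-11, of the same kind, was lower in dauer exit (-1.34). In dauers 3 of the 59 were thus higher and 1 lower, where 4.92% and 13.6% of all named genes were. In dauer exit 0 were higher and 2 lower, where 0.458% and 9.07% of all named genes were. Of 21 receptors for small transmitters such as serotonin, dopamine and acetylcholine, 0 were called between the stages, where 4.01% of all named genes were. In dauers the dopamine receptor gene dop-3 was higher than in mix-stage worms (0.76, adjusted p = 0.00442) and ser-6, for an octopamine receptor, was lower (-0.91, adjusted p = 0.0291). That is 1 of the 21 higher and 1 lower, beside 4.92% and 13.6% of all named genes. The median dauer difference from mix-stage of these 21 genes was 0.23, beside 0.31 for the 17 neuropeptide receptors.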

How the data were processed

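Log2 ratios of Cy5 over Cy3 from 8 Agilent arrays, as deposited, were analysed. After GenePix extraction the authors used limma (version not given in the sources used here) for normexp background correction and for loess within each array, with added weight on spike-in controls. Each log2 ratio was turned to own over mix-stage RNA by the dyes in the labels. Of 45220 features, 44123 had values on every array. Probes of 1 gene were averaged. The mix-stage RNA counts as 1 control sample, and how mix-stage worms vary does not enter the tests against it.

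A linear model with terms for dauer and dauer exit was fitted to 15078 genes by lmFit and eBayes of limma 3.58.1 (R 4.3.3), with Benjamini-Hochberg adjustment over all genes and calls at 0.05 or less. The procedure was first tested on simulated data. The labels name the samples of a stage biological replicates. The receptor set, the gene lists, the tests and the naming rule were chosen with earlier results of these data known. Named were called receptors, the receptors of smallest p up to 5 per direction, and receptors with a known ligand. The number of arrays limits the precision, and no intensities were used. No build is named for the probes, and no sequences or promoter motifs are shown. The gene table of WBcel235 gave names and neighbours, and 98 probes took a newer symbol from it.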

Additional observations from a re-analysis of the deposited data

Results flagged for a closer look

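sprr-2 on dauer array 1 stood apart from the other dauer arrays. Its log2 ratio over mix-stage was 0.0900, against 1.43, 1.43 and 1.45 on arrays 2 to 4, a gap of 0.984 of the group's whole range, which is past Dixon's critical value for 4 samples. It was the only such value among the 34 groups examined, 17 receptors in 2 stages, and chance alone marks about 1 in 20 groups. Without that array the difference between dauers and mix-stage worms was 1.44 (adjusted p = 0.00946 in limma).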

How the results depend on the processing

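Each result was recomputed under 19 alternatives: arrays centred, or centred and scaled, a dye term, each dye alone, array weights, a robust and trended prior, the median of a gene's probes, features fitted alone, no renaming, the replicate block, and each of the 8 arrays left out. Between dauers and dauer exit 0 receptors were called in all 19. Against mix-stage the number called higher in dauers, 2, came to 0 from the Cy5 arrays alone and ran from 0 to 3 with 1 array left out. It was 0 without dauer replicate 2, 3 or 4, 3 without dauer replicate 1 (gnrr-1 added) or dauer exit replicate 1 or 4 (tkr-1 added), and 3 with tkr-1 after centring, after scaling and from the Cy3 arrays alone. npr-1 was called in 15 and sprr-2 in 14 of the 19, and no called gene reversed. npr-1 ran from 0.58 to 1.23 and sprr-2 from 0.76 to 1.44.

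The replicate block left 1 receptor called higher in dauers, npr-1, with sprr-2 at an adjusted p of 0.0675. Same-numbered arrays of the stages had deviations from their stage means that correlated at 0.07, -0.05, 0.23 and -0.15. Replicates 1 and 3 had the same dye orientation in both stages, and replicates 2 and 4 had opposite ones. These values therefore cannot decide whether same-numbered cultures were paired. Centring moved the median of all genes against mix-stage from -0.05 to 0.03 in dauers and from -0.08 to 0.02 in dauer exit. The all-gene calls in dauers against mix-stage were 742 higher and 2054 lower as deposited, and 930 and 1895 after centring. In dauer exit they were 69 and 1367 as deposited, 115 and 1163 after centring, and 206 and 1494 after scaling. Without intensities, a receptor near the background could not be told from one that did not change.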
